A study of Mus musculus with 4 samples.

Results

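Transcripts of 10 genes were examined in the frontonasal prominence (FNP), the embryonic facial tissue that forms the nose and snout. They are Smchd1, its partner Lrif1, the autosomal members of the SMC family (Smc1b, Smc2, Smc3, Smc4, Smc5 and Smc6), the cohesin subunit Rad21 and the loop boundary factor Ctcf. They were chosen by gene symbol, and each had 1 row among the 33708 rows of the deposited table. Only 19 autosomes are in that table, so X-linked subunits such as Smc1a and Stag2 were not analysed here. The FNP was dissected from 4 mouse embryos of the FVB/NJ strain at E10.5, all with 29 somites, and poly(A) RNA was sequenced. The WT group was Smchd1+/+, with 1 female and 1 male embryo. The MD43 group was Smchd1MommeD43/MommeD43, with 2 male embryos. MommeD43 is a chemically induced missense allele that was bred off the GFP transgene of the original screen and kept on FVB/NJ, per the study's methods, so every cell of these embryos carried it. Replicate 2 of each genotype came from the same mother, per the labels, and sex was not balanced between the genotypes.

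The SMC (structural maintenance of chromosomes) proteins are long coiled-coil ATPases that work in pairs to hold or fold DNA. SMC3 is part of cohesin, which extrudes DNA loops and holds sister chromatids together, SMC2 and SMC4 form the core of condensin, which compacts mitotic chromosomes, and SMC5 and SMC6 form a complex for DNA repair and replication. SMCHD1 is a noncanonical member that has the SMC hinge but a GHKL-type ATPase domain, and it silences the inactive X chromosome and clusters of autosomal genes. LRIF1 binds SMCHD1 and the HP1 proteins at heterochromatin.

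The MommeD43 allele is shown here because it is the only designed difference between the groups. It lies in exon 15 of Smchd1 transcript ENSMUST00000127430, at position 71427500 of chromosome 17 (GRCm38), where the gene is read from the minus strand. In the coding sequence it is C2000A, counted from the A of the start codon, and in the protein it is A667E, counted from the first methionine. The 27 bases around it (chr17:71427487-71427513, minus strand, 5′ to 3′) are given with the changed base in capitals. The WT sequence was taken from the GENCODE M21 transcript, and the changed base from the study's variant list.
WT: actgtgcccattgCaaagctggatagg
MommeD43: actgtgcccattgAaaagctggatagg

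The deposited value is a log2 RPKM (reads per kilobase of exon, scaled to library size) merged over the 2 embryos of a genotype. There is therefore 1 value per genotype, no spread between embryos, and no test of any difference given here. The read counts behind each value could be recovered as the product of the counts of both libraries, and the geometric mean of that product is called the reads of a genotype. The implied depth was 22328791 reads in MD43 and 16055882 reads in WT, each the geometric mean of its 2 libraries. MD43 was thus 1.39 times as deep. The error given after each log2 difference is the smallest that counting of these reads allows, and it covers counting error only. Variation between the embryos comes on top of it and is unknown. Genes whose reads, averaged geometrically over WT and MD43, came to 10 or more (14931 genes) are called tested genes, and 9 of the 10 genes were among them. In bulk tissue, fewer cells of a type and less RNA per cell cannot be told apart.

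Smchd1 (chromosome 17, 71344489 to 71475343, minus strand) had nearly the same transcript level in both genotypes. Its level was 9.93 RPKM in WT (3185 reads) and 9.84 RPKM in MD43 (4390 reads). The log2 difference, MD43 minus WT, was -0.013 ± 0.024, with a 95% counting interval from -0.06 to 0.034. The missense allele was thus present at a transcript level within 1.2-fold of WT, and protein was not measured in these data. Of all tested genes, 4.78% had a smaller absolute difference than Smchd1. Both genotypes are homozygous, so this difference sets the WT allele in WT embryos against the MommeD43 allele in MD43 embryos. The altered base itself cannot be seen in the deposited values.

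Lrif1 (chromosome 3, 106684987 to 106736577, plus strand), which encodes the ligand-dependent nuclear receptor interacting factor that recruits SMCHD1 to HP1-marked chromatin, was the gene with the widest difference among the 9. Its level was 1.86 RPKM in WT (275 reads) and 1.23 RPKM in MD43 (253 reads). MD43 was lower by 1.51-fold, a log2 difference of -0.59 ± 0.089, and the 95% counting interval ran from -0.77 to -0.42. The value lies just past 1.5-fold (0.58 on the log2 scale). It had fewer reads in MD43 although the implied depth was greater there, both as geometric means of 2 libraries.

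The counts of the single libraries behind the Lrif1 values could be narrowed down, although not assigned to an embryo, and this was tried after the data had been seen. Genes whose product was whole within 0.05 and allows 1 pair of counts were used to estimate the depth ratio of the 2 libraries of a genotype. The larger count of a gene was a median of 1.52 times its smaller count in MD43 (94 genes) and 1.48 times in WT (153 genes). This median was taken as the ratio of the deeper to the shallower library, although the library of each count is not known. In MD43 the product of 64148 allowed 1 pair within the central 90% of those ratios, 203 and 316 reads. In WT the product of 75480 allowed 4 such pairs. These were 255 and 296 reads, 222 and 340 reads, 204 and 370 reads, and 185 and 408 reads.

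Whether the genotypes overlapped depended on which library held the larger count. With the larger count in the deeper library of both genotypes, the 2 MD43 libraries lay 0.037 apart on the log2 scale after correction for depth. The 2 WT libraries lay 0.047 to 0.57 apart in that case, and neither of them fell within the MD43 values in any of the 4 combinations. This outcome was fixed in advance, because only pairs with a ratio near the depth ratio were kept, which holds these gaps small. It therefore gives no support for a lower value in both MD43 embryos. With the larger MD43 count in the shallower library, the MD43 libraries lay 1.24 apart and the genotypes overlapped. Over all 16 combinations 5 were without overlap, and these 5 were among the 8 with the larger MD43 count in the deeper library. All 16 used the same selected pairs, so this count gives no support for a lower value in both MD43 embryos either. The data therefore allow a lower value in both MD43 embryos but do not fix it.

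Among the cohesin genes, Smc3 (chromosome 19, 53600398 to 53645833, plus strand), the SMC subunit shared by mitotic and meiotic cohesin, had 48.6 RPKM in WT and 46.7 RPKM in MD43. Its log2 difference was -0.06 ± 0.021. Rad21 (chromosome 15, 51962240 to 51991747, minus strand), the kleisin that closes the cohesin ring, had the highest level of the 10 genes. It had 97.4 RPKM in WT and 95.7 RPKM in MD43, a log2 difference of -0.025 ± 0.017. The 95% counting interval left out 0 for Smc3 and held 0 for Rad21, and both genes were within 1.2-fold of WT.

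Smc1b (chromosome 15, 85064689 to 85131964, minus strand) encodes the meiotic counterpart of SMC1A and was at the limit of detection. Its WT product fits 2 reads in one library and none in the other, and its MD43 product fits 1 read in one library and none in the other. Neither genotype exceeded 3 reads, so no fold is given. Other meiotic cohesin genes were similarly low. The meiotic kleisin genes Rec8 and Rad21l each had at most 2 reads in either genotype. Stag3, the meiotic STAG subunit, was an exception with 111 reads in WT and 130 reads in MD43, at a log2 difference of -0.25 ± 0.13.

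The condensin ATPases had opposite signs of small size. Smc2 (chromosome 4, 52439243 to 52488260, plus strand) had 41.5 RPKM in WT and 44.0 RPKM in MD43, a log2 difference of 0.086 ± 0.022. Smc4 (chromosome 3, 69004738 to 69034623, plus strand), which pairs with SMC2, had 68.8 RPKM in WT and 66.4 RPKM in MD43, a log2 difference of -0.051 ± 0.018. For both genes the 95% counting interval left out 0, yet that interval holds no variation between embryos.

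The pair that forms the SMC5/6 complex differed less. Smc5 (chromosome 19, 23206451 to 23273897, minus strand) had 19.3 RPKM in WT and 18.8 RPKM in MD43, a log2 difference of -0.039 ± 0.029. Smc6 (chromosome 12, 11265886 to 11319785, plus strand) had 12.4 RPKM in WT and 12.2 RPKM in MD43, a log2 difference of -0.03 ± 0.027. Both counting intervals held 0.

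Ctcf (chromosome 8, 105636568 to 105682922, plus strand) encodes the zinc finger protein that stops cohesin at loop boundaries. Its level was 43.1 RPKM in WT (3366 reads) and 46.1 RPKM in MD43 (5002 reads). The log2 difference of 0.096 ± 0.023 was the highest of the 9 genes and lay well within 1.2-fold, with a 95% counting interval from 0.051 to 0.14.

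**Figure D1:**
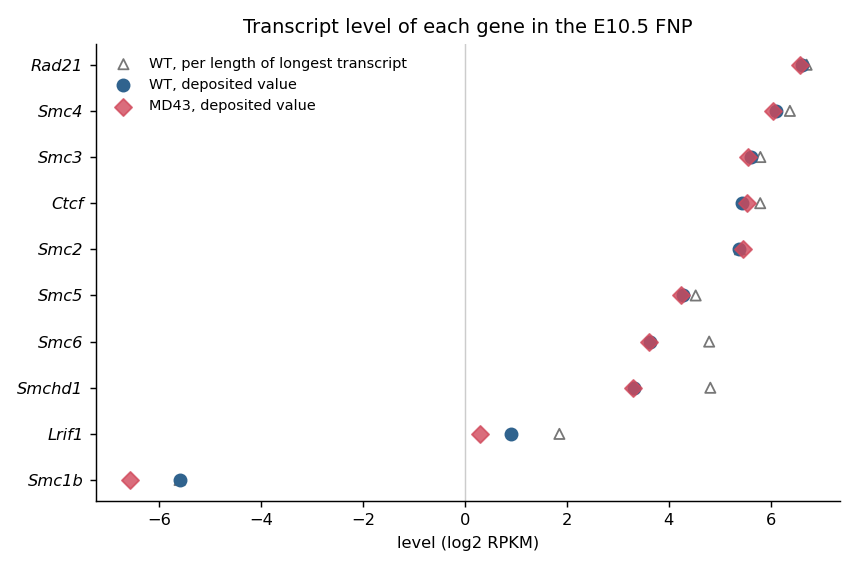
Level of each of the 10 genes in log2 RPKM on the horizontal axis, with WT as circles and MD43 as diamonds (each merged over 2 embryos) and WT per length of the longest transcript as open triangles. Both genotypes nearly coincide for 8 genes, Lrif1 is lower in MD43, and Smc1b lies far below the rest with at most 3 reads.

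Per kilobase of all annotated exons, the order from high to low was the same in both genotypes. It ran Rad21, Smc4, Smc3, Ctcf, Smc2, Smc5, Smc6, Smchd1, Lrif1 and Smc1b. Smc3, Ctcf and Smc2 were close, with 0.17 (WT) and 0.018 (MD43) between Smc3 and Ctcf and 0.056 (WT) and 0.066 (MD43) between Ctcf and Smc2, all in log2 units. With no spread between embryos, the order of these 3 genes cannot be told. Lrif1 lay 2.4 log2 units below Smchd1 in WT and 3.0 below it in MD43.

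The place of Smchd1 in this order depended on its length. All annotated exons of Smchd1 cover 19.98 kb, 2.83 times its longest transcript of 7.05 kb, whereas the ratio was 1.01 for Smc2 and 2.23 for Smc6. Per length of the longest transcript, a choice added after the data were seen, Smchd1 had 28.1 RPKM in WT and 27.9 RPKM in MD43. It then ranked above both Smc6 (27.7 RPKM in WT) and Smc5 (23.0 RPKM in WT), and Ctcf ranked above Smc3 over both genotypes together. Smchd1 and Smc6 were close, and with no spread between embryos their order cannot be told, nor can that of Ctcf and Smc3. Lrif1 rose to 3.61 RPKM in WT and 2.39 RPKM in MD43 on this scale and kept its rank of 9. Differences between genotypes are the same on either length.

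Against all tested genes, 1 of the 9 genes was lower in MD43 by 1.5-fold or more, and 0 were higher by that much. The gene was Lrif1, and no gene was past 1.5-fold with a pseudocount of 0.1 RPKM (Lrif1 at -0.56) or 1 RPKM (Lrif1 at -0.36) or after a correction for GC content and length (Lrif1 at -0.38). Among all tested genes, 5.89% were lower by this factor or more, and 2.87% were higher by it. At 1.2-fold the 9 genes gave the same counts, 1 lower and 0 higher, where all tested genes gave 17.0% lower and 12.2% higher. The median of the 9 genes was -0.03 and that of all tested genes 0.0031.

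Fold thresholds are passed more often at low read counts, so genes of similar reads were also set beside them, a choice made after the data were seen. The 8 genes other than Lrif1 each had at least 1000 mean reads and lay between -0.06 and 0.096, with a median of -0.028. Of the 4580 tested genes with at least 1000 mean reads, the central 95% lay between -0.31 and 0.34, with a median of 0.04. In that set 3.43% were lower and 6.20% higher by 1.2-fold or more, against 0 and 0 of the 8. At 1.5-fold the shares were 0.524% lower and 0.393% higher. Lrif1 had 264 mean reads. Of the 6481 tested genes with 100 to 1000 mean reads, 3.01% were lower and 1.02% higher by 1.5-fold or more, and their central 95% ran from -0.62 to 0.45. At 1.2-fold, 15.0% of them were lower and 9.69% higher. Lrif1 thus lay near the lower edge of genes with similar reads, inside their central 95%.

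**Figure D2:**
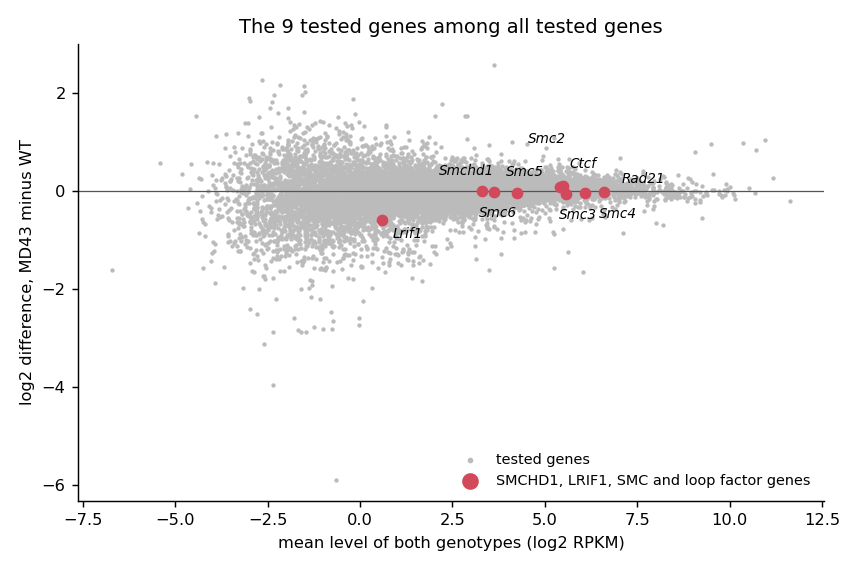
Log2 difference, MD43 minus WT, of the 14931 tested genes (grey points) against their mean level in log2 RPKM, with the 9 tested genes in red. The cloud widens towards low levels, where Lrif1 lies at -0.59, and the other 8 lie between -0.06 and 0.096 at higher levels.

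GC content and exon length together moved with these differences. A quadratic fit on both over all tested genes accounted for 1.83% of the variance, and subtracting it raised each of the 9 genes by 0.053 to 0.21. Of the 7 genes that were lower in MD43, 6 were higher after the correction, and all but Lrif1 then lay between 0.034 (Smc3) and 0.21 (Smc2). The signs of these 6 are therefore not fixed by these data, whereas Smc2 and Ctcf were higher in MD43 before and after. Lrif1 remained lower at -0.38 after the correction, no longer past 1.5-fold. The longest Lrif1 transcript has 33.4% GC, where the median of tested genes is 49.9%.

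**Figure D3:**
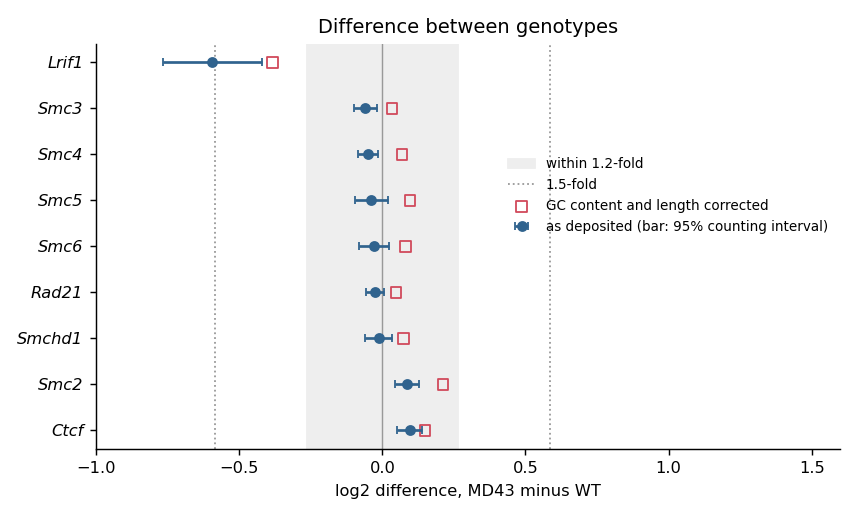
Log2 difference, MD43 minus WT, of the 9 tested genes, as deposited (circles, with bars for the 95% counting interval) and after correction for GC content and length (open squares), with differences within 1.2-fold shaded and 1.5-fold as dotted lines. Every gene moves to the right with the correction, and Lrif1 stays the lowest, at -0.59 as deposited and -0.38 corrected.

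Genes that overlap a member on the genome could share reads with it. A transcript of unknown coding potential within Lrif1 on the same strand, Gm38253, had 17.3 reads in WT and 9.54 reads in MD43, few beside the reads of Lrif1. Genes that overlap Smchd1 (Gm26561, Gm37639, Gm38220 and Gm4707) had at most 12.6 reads each. Agrp and Gm5914, on the strand opposite to Ctcf, had at most 36.9 reads each. Each is small beside its host gene, and the part of shared reads was not tested.

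The rest of each complex was then examined through lists of subunits and regulators. Cohesin is loaded by NIPBL and MAU2, released by WAPL and PDS5 proteins, and cut by separase at anaphase. Of 11 genes for these steps, all tested, 5 were lower and 6 higher in MD43, with a median of 0.014. The most abundant was Pttg1 (securin, the inhibitor of separase), at 0.11 ± 0.036. Only Espl1, separase itself, passed 1.2-fold in this list, at 0.42 ± 0.031, where all tested genes gave 17.0% lower and 12.2% higher. Nipbl was at -0.081 ± 0.025. In the cohesin core list 4 of 7 genes were tested, all 4 of them lower in MD43 (median -0.044), and the untested 3 had at most 3 reads. After the correction for GC content and length the median of that list was 0.041, and Stag3 alone remained lower, at -0.22.

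All 8 condensin genes were tested, 3 lower and 5 higher, with a median of 0.066 and a range from -0.12 to 0.14. Ncaph2, the kleisin of condensin II and the most abundant of them, was at -0.12 ± 0.019. Of 9 genes of the SMC5/6 complex and its helpers 8 were tested, 5 lower and 3 higher, with a median of -0.035 that became 0.072 after the correction for GC content and length. The most abundant, Nsmce1, a RING-type subunit, was at 0.059 ± 0.043. None of the tested genes of either complex passed 1.2-fold. Of all genes with at least 1000 mean reads, 3.43% were lower and 6.20% higher by that factor or more. Nsmce3 (509 mean reads) and Slf1 (842 mean reads) had fewer. Of genes with 100 to 1000 mean reads, 15.0% were lower and 9.69% higher by 1.2-fold or more. The untested gene, Eid3, was at -0.36 ± 0.64, from 4.9 reads in WT and 5.3 reads in MD43.

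Of 8 loop boundary genes 7 were tested, 1 lower and 6 higher, with a median of 0.031 and Ctcf as the highest. Maz, a zinc finger protein that also acts at boundaries and the most abundant of them, was at 0.048 ± 0.02. Ctcfl, the testis paralogue of Ctcf, had no reads in either genotype.

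Families related to Smchd1 and Lrif1 were described in the same way. The GHKL ATPases are the fold family of the SMCHD1 ATPase domain and include MORC proteins, HSP90 and type II topoisomerases. Of 15 such genes 13 were tested, 5 lower and 8 higher, with a median of 0.033 and none past 1.2-fold. By that factor or more, all tested genes gave 17.0% lower and 12.2% higher. Hsp90ab1, a cytosolic HSP90 and the most abundant, was at 0.051 ± 0.0050, and the MORC genes Morc2a and Morc3 were at 0.0058 ± 0.030 and -0.015 ± 0.048. Among the LRIF1 partners, the HP1 genes Cbx1, Cbx3 and Cbx5 were at -0.015 ± 0.018, -0.038 ± 0.03 and -0.048 ± 0.011, and the retinoic acid receptor gene Rara was at -0.0019 ± 0.063. Each of these 4 partner genes lay within 1.2-fold, and each had more reads than Lrif1 (524 to 17233 mean reads, against 264). After the correction for GC content and length the median of the 5 genes, Lrif1 included, went from -0.038 to 0.04.

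**Figure D4:**
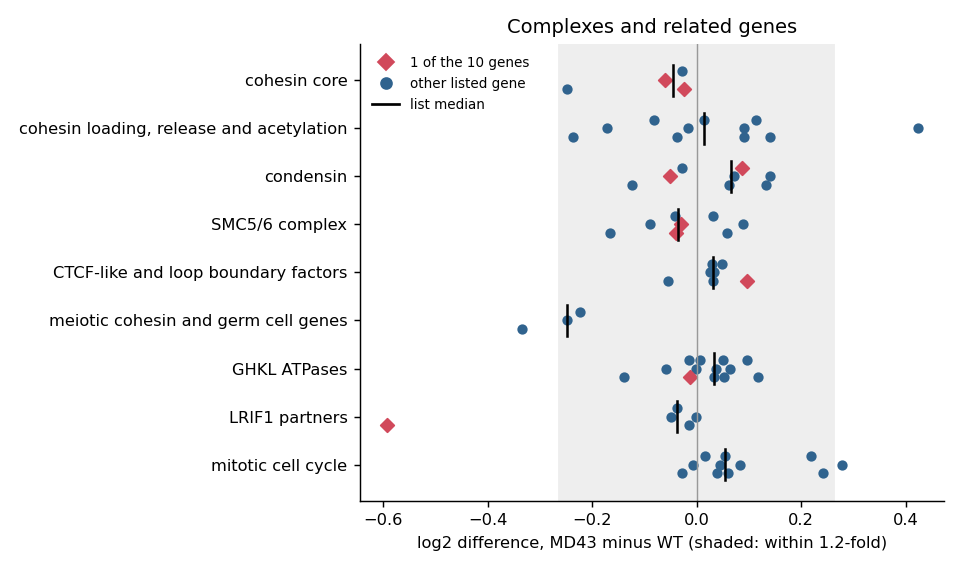
Log2 difference, MD43 minus WT, of the tested genes of 9 lists (circles, with diamonds for the genes described first and a black line for each list's median), with differences within 1.2-fold shaded. Past 1.2-fold lie only Lrif1, Espl1, Sycp3 and Mcm5.

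Condensin and cohesin genes follow the cell cycle, so proliferation genes were set beside them. Of 11 mitotic genes, all tested, 2 were lower and 9 higher in MD43, with a median of 0.055. Pcna, the most abundant and the sliding clamp of replication, was at -0.0064 ± 0.017. Mcm5, a subunit of the replicative helicase, was the only one past 1.2-fold, at 0.28 ± 0.016. Each of the 11 had at least 1000 mean reads. Of all such genes 6.20% were higher by 1.2-fold or more, and their median was 0.04. Of 11 meiotic and germ cell genes, 8 had at most 3 reads, and the 3 that were tested were all lower, with a median of -0.25. In that list Sycp3, an axis protein of meiotic chromosomes, was at -0.33 ± 0.36 from 15.2 reads in WT and 16.7 reads in MD43.

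The genes next to Smchd1 on chromosome 17 were examined because the MD43 embryos are homozygous for the segment that carries the mutated allele. The 4 nearest tested genes on each side start within 351 kb, where the start is the lower genome coordinate of a gene on either strand. The better covered neighbours were within 1.2-fold of WT, with Myl12a at -0.029 ± 0.025, Lpin2 at 0.0025 ± 0.032, Emilin2 at 0.06 ± 0.068 and Ndc80, a kinetochore subunit, at -0.13 ± 0.04. Trmt61b, which the annotation types as antisense, was at 0.033 ± 0.093. The others had under 100 reads and wide counting errors, with Myom1 at -0.26 ± 0.21, Spdya at -0.16 ± 0.15 and Gm38220, which lies inside Smchd1, at -0.70 ± 0.42.

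**Figure D5:**
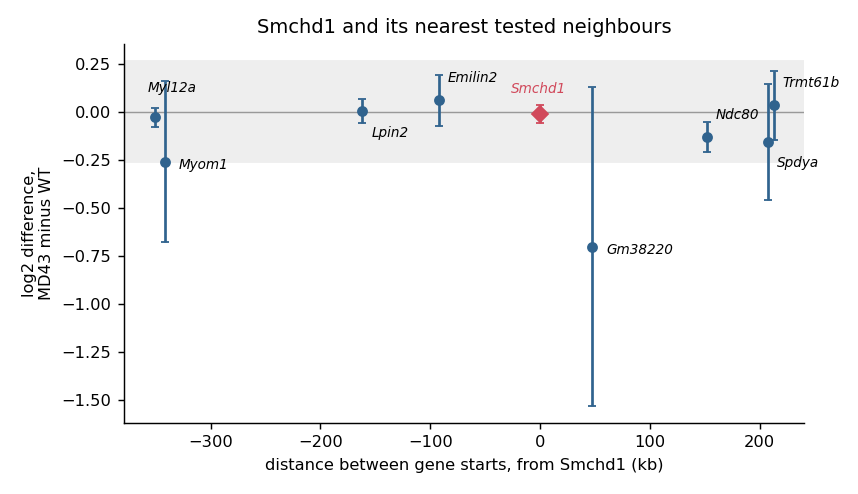
Log2 difference, MD43 minus WT, of Smchd1 (red diamond) and the 4 nearest tested genes on each side, against the distance between gene starts in kb, with bars for the 95% counting interval and differences within 1.2-fold shaded. A gene start is its lower genome coordinate, on either strand. Only Gm38220 lies outside the shaded range, and its interval includes 0.

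Cell type markers moved with genotype and are given because the dissections hold several tissues. Markers of the labelled tissue were present, with all 8 frontonasal mesenchyme genes tested, 4 lower and 4 higher in MD43. They summed to 149 RPKM in WT and 147 RPKM in MD43, sums in which opposite differences offset each other. By 1.2-fold or more, 2 were lower and 1 was higher, where all tested genes gave 17.0% lower and 12.2% higher. Msx1, a homeobox gene and the most abundant of them, was at -0.17 ± 0.031. All 5 surface ectoderm and nasal placode genes were higher, with sums of 87.2 RPKM in WT and 131 RPKM in MD43. Among them Cdh1 (E-cadherin) was at 0.73 ± 0.055, Krt8 at 0.70 ± 0.044, Epcam at 0.61 ± 0.049 and Krt18, the most abundant, at 0.49 ± 0.044.

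Red blood cell genes were higher still, all 4 of 4, with sums of 3055 RPKM in WT and 5807 RPKM in MD43. The embryonic globins Hbb-bh1, Hbb-y and Hba-x were at 1.04 ± 0.01, 0.84 ± 0.011 and 0.79 ± 0.015. Of 5 forebrain genes 4 were lower, with sums of 157 RPKM in WT and 140 RPKM in MD43. Otx2, a homeobox gene of the anterior head, was at -0.62 ± 0.033, and Sox2, the most abundant, was at -0.13 ± 0.026. Of 4 endothelial genes 3 were lower, with Cdh5, the most abundant, at -0.0071 ± 0.10 and Kdr, a VEGF receptor and the only one past 1.2-fold, at -0.33 ± 0.078. Both tested macrophage genes were lower, with Csf1r, the more abundant, at -0.033 ± 0.088 and Cx3cr1, past 1.2-fold, at -0.57 ± 0.25. The 4 germ cell markers each had at most 3 reads. The part of these marker differences in the values of Lrif1 and the other genes was not tested, and genotype, the sex of the embryos and the dissection cannot be told apart.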

How the data were processed

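Poly(A) RNA of the FNP of 4 embryos was sequenced with a stranded kit. The authors trimmed the reads with Trim Galore 0.4.4, mapped them with HISAT2 2.0.5 to GRCm38 and quantified them in SeqMonk. The deposited table holds log2 RPKM in 1 merged column per genotype, which the authors scaled to library depth and to exon length. Its other columns hold the authors' fold change, FDR and average, and they were not used. Whether counting used strand is not given in the sources used here.

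Rows were joined to GENCODE M21 on symbol and position, and 33101 of 33708 matched. Genes without reads in either genotype share 1 difference between the columns. Taking a library without reads as 0.9 reads fixed the scale, after which 99.9% of products of both libraries' counts under 1000 were whole, or 0.9 times a whole number, or the square of 0.9, in each genotype, within 0.01 up to a product of 100 and within 0.01 per 100 of the product above it. Of these products the square root was used as the reads, and the smallest counting error follows from it. Intervals cover counting error only. The recovery was also run on simulated data built with the same scaling, so that run cannot show whether the deposited values follow it. Tested genes had 10 or more reads as the geometric mean of WT and MD43.

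The 10 genes and all gene lists were chosen with earlier results of these data known. The text names all 10, the most abundant tested gene of each list with up to 4 past 1.5-fold, and 4 neighbours on each side of Smchd1. A marker gene that the rule would name is not reported here. Other genes named were chosen after their values were seen. Alternatives were pseudocounts of 0.1 and 1 RPKM, centring, a correction for GC content and length, and other filters. Versions were Python 3.11.15, numpy 2.4.6, pandas 2.3.3, sympy 1.14.0 and matplotlib 3.10.9.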

Additional observations from a re-analysis of the deposited data

How the results depend on the processing

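Correction for GC content and length moved each of the 9 tested genes by more than its counting error. With it Smchd1 was at 0.074, Lrif1 at -0.38 and the median of the tested genes at 0.074, and 0 genes were at least 1.5-fold lower in MD43. A pseudocount of 1 RPKM brought Lrif1 to -0.36 and left 0 genes at least 1.5-fold lower, and a pseudocount of 0.1 RPKM, with Lrif1 at -0.56, also left 0. Without a filter on low values 2 genes were lower by 1.2-fold or more, and 2 by 1.5-fold or more, the second being Smc1b with at most 3 reads. Centring on the median of all tested genes and the stricter filters changed no count. No paired analysis was possible because the deposited values are merged over the embryos of a genotype, and leaving out each replicate could not be run for the same reason. Why the values depended on GC content and length, and on which of them, was not tested.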
